A study of Saccharomyces cerevisiae with 28 samples.

Results

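The proteasome is the protease that breaks down proteins tagged with ubiquitin. Its transcripts were followed here through 32 subunit genes of Saccharomyces cerevisiae and RPN4, the gene for the transcription factor that activates them. The 33 genes are 14 subunits of the core particle (7 of the alpha ring and 7 of the beta ring), 18 subunits of the regulatory particle (6 ATPases and 4 other subunits of the base, 8 subunits of the lid) and RPN4. Each was taken by its symbol in the platform annotation from probe sets that name 1 gene, and where a gene had several probe sets the one with the highest mean level was used. All 33 were measured, out of 5656 genes on the array, and PRE3 and RPT5 had several probe sets.

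The core particle is a barrel in which the alpha ring forms the gated entrance and the beta ring holds the proteolytic sites, carried by PRE3, PUP1 and PRE2. The regulatory particle caps the barrel. Its base unfolds substrates with the ATPases RPT1 to RPT6 and holds the ubiquitin receptors RPN10 and RPN13, and its lid carries RPN11, the enzyme that removes ubiquitin from substrates. Rpn4 binds a shared promoter element of the subunit genes and is itself a short-lived substrate of the proteasome, which makes a feedback loop in yeast.

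Total RNA of log phase cells was measured on 28 Affymetrix yeast arrays in 8 groups. BY is a laboratory strain isogenic to the reference strain, and RM is a wild strain from a vineyard. BY haploids, RM haploids, BY diploids made by a cross within BY, and RM diploids made by a cross within RM gave 3 arrays each. Hybrid diploids of BY and RM gave 6 arrays, 1:1 mixtures of mRNA from both strains gave 6, haploid segregants of the cross gave 2, and diploids from crosses between segregants gave 2. The labels give no mating types, marker mutations or culture conditions beyond log phase, and do not say whether haploid or diploid RNA was mixed or whether replicates were separate cultures. The p-values therefore rest on differences among replicate arrays that may be technical alone. Levels are relative to the RNA on each array, so fewer cells of a kind and less mRNA per cell cannot be told apart.

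All levels are log2 levels per probe set as deposited, and differences are on the same log2 scale with their standard error (SE). Since probe sets differ in brightness, no level is set against that of another gene. A gene passed when its limma adjusted p, over all 9274 probe sets, was under 0.05. Array medians lay between 7.34 and 7.56, and precision is limited by how few arrays a group has. Mean correlations with the other arrays of the group lay between 0.963 and 0.994, except for mixture replicate 5 at 0.922. The labels' cell states were checked with mating genes, none of them listed at 0. The mean level of 7 a-specific genes was 10.10 to 10.17 in RM haploids, 9.03 to 9.35 in mixtures and at most 7.07 in the other 6 groups. The mean of 4 alpha-specific genes was 11.80 to 12.02 in BY haploids, 11.32 to 11.59 in mixtures, 12.27 to 12.31 in segregants and at most 7.78 elsewhere. The mean of 8 haploid-specific genes was at least 8.38 in haploids, segregants and mixtures and at most 6.91 in the 4 kinds of diploid. Of these genes HO did not follow the labels. Its group mean was 8.74 in BY haploids, but 7.08 in RM haploids and 6.61 in segregants, beside 6.58 to 6.90 in diploids. BY and RM haploids thus carried markers of opposite mating types, and mixtures carried markers of both, so in haploids strain and mating type cannot be told apart.

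The 33 genes were in the brighter part of the array, with single levels from 8.04 (RPN4) to 11.08 (PRE3), and 60.4% of all genes had a lower mean than the lowest of the 33. Hybrid arrays stood at the high end for most subunits, and RPT6, RPN13, RPN6 and RPN7 were low in RM. The members' values by array are drawn in the heat map.

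**Figure D1:**
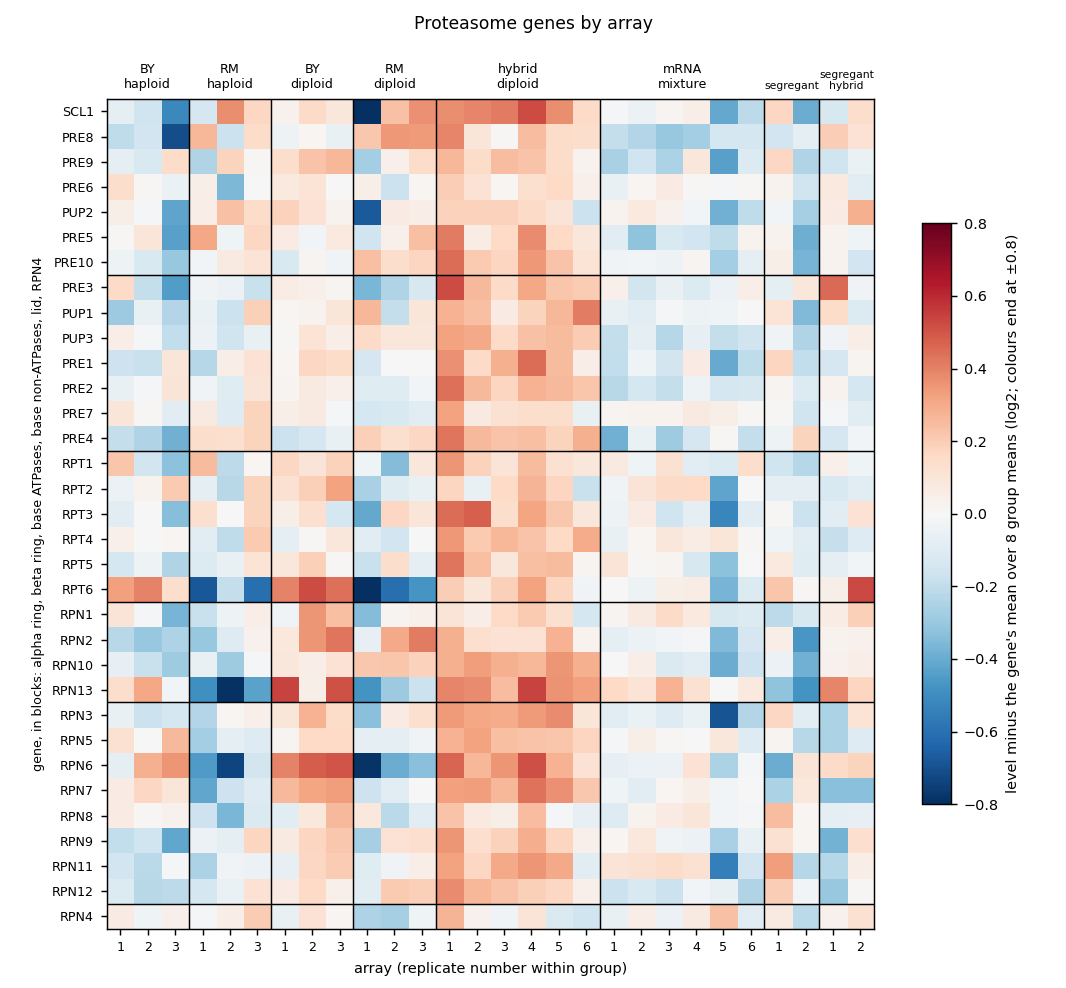
Level of each of the 33 proteasome genes (vertical axis, in blocks by subcomplex) on each of the 28 arrays (horizontal axis, by group and replicate number), as the log2 level minus the gene's mean over the 8 group means. Red is higher and blue is lower, and colours end at ±0.8. The hybrid columns are mostly red, and the RPT6, RPN13, RPN6 and RPN7 cells are mostly blue in the RM columns.

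The first comparison asked how the strains differ. In haploids 5 of 33 proteasome genes (15.2%) were lower in RM and 2 (6.1%) were higher. Among all genes 5.23% were lower and 12.1% higher. The lower ones were all regulatory subunits (RPT6, RPN13, RPN6, RPN7 and RPN5), and the higher ones were core subunits (PRE8 and PRE4). In diploids 4 (12.1%) were lower (RPT6, RPN6, RPN13 and RPN7) and 0 were higher, against 8.45% lower and 9.83% higher among all genes. Before adjustment 9 of 33 had a p under 0.05 in each of these comparisons, as did 1595 of 5656 genes in haploids and 1709 in diploids. The strains' arrays did not overlap, in either direction, in 10 of 33 proteasome genes and 1979 of 5656 genes in haploids. In diploids this was so in 15 of 33 and 2871 of 5656, so a lack of overlap was common among all genes.

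RPT6, one of the ATPases that unfold substrates, had levels of 10.22, 10.29 and 10.03 in BY haploids and 9.21, 9.70 and 9.29 in RM haploids. In diploids it had levels of 10.29, 10.41 and 10.33 in BY and 8.73, 9.29 and 9.42 in RM. Every RM array lay below every BY array at both ploidies. The difference was -0.78 ± 0.16 in haploids (1.72-fold lower, n = 3 and 3, limma adjusted p = 7.7e-04) and -1.20 ± 0.16 in diploids (2.29-fold lower, limma adjusted p = 3.8e-06).

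RPN13, a ubiquitin receptor docked on RPN2, had levels of 9.77, 9.94 and 9.61 in BY haploids and 9.14, 8.84 and 9.20 in RM haploids. Its diploid levels were 10.17, 9.68 and 10.14 in BY and 9.15, 9.34 and 9.46 in RM. The strains' arrays did not overlap at either ploidy. It was lower in RM by 1.64-fold in haploids (-0.71 ± 0.13, limma adjusted p = 3.5e-04) and by 1.60-fold in diploids (-0.68 ± 0.13, limma adjusted p = 6.5e-04).

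RPN6, a lid subunit that also contacts the core, had levels of 9.84, 10.20 and 10.27 in BY haploids and 9.46, 9.18 and 9.77 in RM haploids. Its diploid levels were 10.31, 10.40 and 10.42 in BY and 9.13, 9.52 and 9.58 in RM. All RM arrays were the lower ones, with differences of -0.63 ± 0.15 in haploids (limma adjusted p = 0.00386) and -0.97 ± 0.15 in diploids (limma adjusted p = 4.4e-05).

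RPN7, another scaffold subunit of the lid, had levels of 9.28, 9.38 and 9.31 in BY haploids and 8.80, 9.05 and 9.11 in RM haploids. In diploids the levels were 9.47, 9.53 and 9.55 in BY and 9.05, 9.13 and 9.21 in RM. The strains again did not overlap. The differences of -0.34 ± 0.09 (limma adjusted p = 0.0138) and -0.39 ± 0.09 (limma adjusted p = 0.00503) were the smallest of these 4 subunits. The haploid call was lost without BY haploid replicate 2 (-0.31, limma adjusted p = 0.055) or RM haploid replicate 1 (-0.24, limma adjusted p = 0.106). The array's probes may match the strains' sequences unequally, and the part of this in the 4 differences was not tested.

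**Figure D2:**
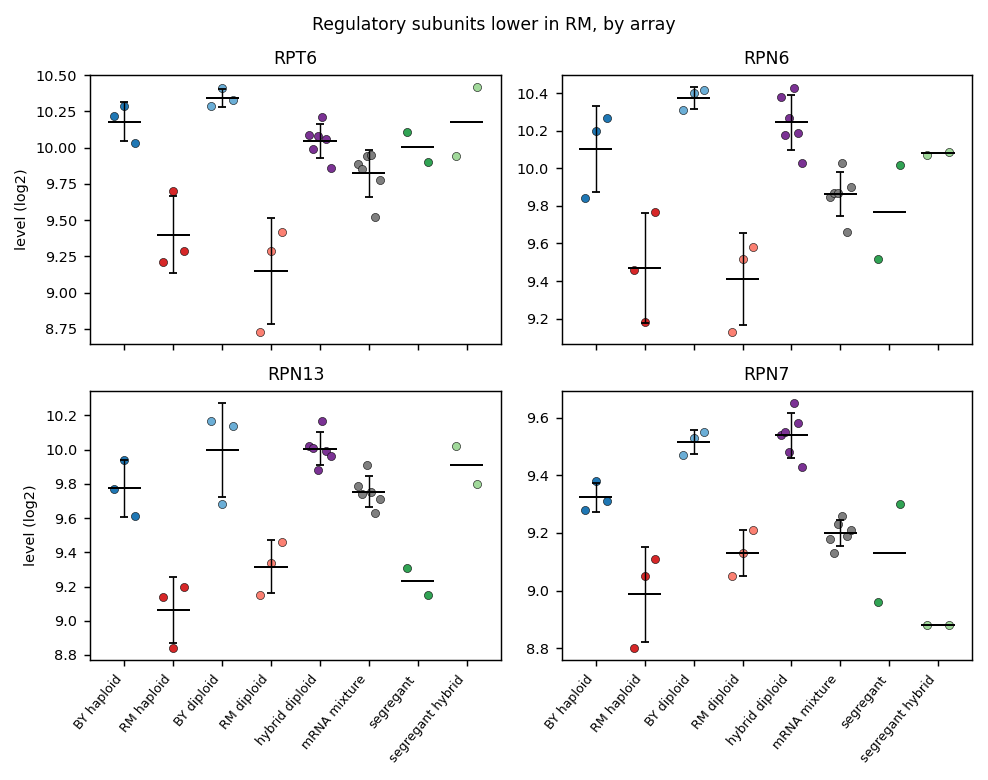
Log2 levels (vertical axes) of RPT6, RPN6, RPN13 and RPN7 on each array by group (horizontal axis). Points are arrays, lines are group means and bars are SDs for groups of 3 or more, and the axes do not start at 0. In each panel the RM haploid and RM diploid arrays lie below the BY arrays of the same ploidy.

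RPN5, also of the lid, passed in haploids with a difference of -0.27 ± 0.09 (limma adjusted p = 0.0444). Its levels were 9.47, 9.35 and 9.61 in BY haploids and 9.08, 9.28 and 9.25 in RM haploids, which did not overlap. In diploids the difference was -0.18 ± 0.09 (limma adjusted p = 0.23), and the 2 differences were not shown to differ (interaction 0.10 ± 0.13). The call in haploids was lost when BY haploid replicate 1 or 3 or RM haploid replicate 1 or 3 was left out (limma adjusted p from 0.0574 to 0.195).

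PRE4, a beta ring subunit without a proteolytic site, went the other way. Its levels were 9.86 to 10.05 in BY haploids against 10.38, 10.37 and 10.42 in RM haploids, and 10.07, 10.11 and 10.18 against 10.43, 10.37 and 10.41 in diploids. Every RM array was above every BY array of its ploidy. The difference passed in haploids (0.42 ± 0.10, limma adjusted p = 0.0048) and not in diploids (0.28 ± 0.10, limma adjusted p = 0.0623).

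PRE8, an alpha ring subunit, had levels of 10.20, 10.25 and 9.69 in BY haploids and 10.67, 10.23 and 10.55 in RM haploids. The groups overlapped, with BY haploid replicate 3 the lowest array. The difference was 0.44 ± 0.13 (limma adjusted p = 0.0242), and without BY haploid replicate 3 it was 0.26 and lost the call (limma adjusted p = 0.194). The call was also lost without RM haploid replicate 1 (limma adjusted p = 0.131) or 3 (limma adjusted p = 0.0777). In diploids the arrays did not overlap (10.36, 10.42 and 10.34 in BY, 10.62, 10.75 and 10.74 in RM), yet the difference of 0.33 ± 0.13 did not pass (limma adjusted p = 0.101).

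The catalytic subunits passed in neither strain comparison. PRE2, which carries the chymotrypsin-like site, differed by -0.02 ± 0.09 in haploids and -0.12 ± 0.09 in diploids. PUP1, with the trypsin-like site, differed by 0.18 ± 0.12 and 0.01 ± 0.12. PRE3, with the caspase-like site, differed by 0.08 ± 0.13 and -0.29 ± 0.13 on the probe set used. The 2 other probe sets of PRE3, which can share sequence with relatives, were higher in RM haploids by 0.65 ± 0.15 (limma adjusted p = 0.00356) and 0.63 ± 0.18 (limma adjusted p = 0.0155), so the probe sets of this gene disagree. RPN10 (0.06 ± 0.11 and 0.12 ± 0.11) and RPN11 (0.02 ± 0.16 and -0.12 ± 0.16) did not pass.

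The median strain difference over the 32 subunits was 0.06 in haploids, beside 0.07 over all genes, and -0.15 in diploids, beside 0.00. In diploids 2 of the 18 regulatory subunits and 5 of the 14 core subunits had a difference above 0, as did 2846 of 5656 genes. SCL1 and PUP2, both of the alpha ring, had 1 RM diploid array far below the others: SCL1 levels were 8.97, 10.21 and 10.34, and PUP2 levels were 9.19, 9.93 and 9.92. Their strain differences in diploids (-0.23 ± 0.23 and -0.29 ± 0.17) did not pass.

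The second comparison asked whether diploids and haploids of a strain differ in the proteasome genes. They also differed in cell type: 4 of 4 alpha-specific and 7 of 8 haploid-specific genes were lower in BY diploids. In RM diploids 6 of 7 a-specific and 6 of 8 haploid-specific genes were lower. Ploidy and cell type therefore cannot be told apart here. In BY 2 of 33 were higher in diploids and 0 were lower, against 2.44% higher and 1.06% lower among all genes. RPN2, the large scaffold subunit of the base that holds RPN13, had levels of 9.51, 9.43 and 9.49 in BY haploids and 9.82, 10.09 and 10.16 in BY diploids. RPN9, a lid subunit, had levels of 9.08, 9.12 and 8.86 in BY haploids and 9.35, 9.45 and 9.49 in BY diploids. In both genes all diploid arrays were above all haploid arrays. The BY groups did not overlap, in either direction, in 12 of 33 proteasome genes and 1872 of 5656 genes. The differences were 0.55 ± 0.13 for RPN2 (1.46-fold, limma adjusted p = 0.00777) and 0.41 ± 0.12 for RPN9 (1.33-fold, limma adjusted p = 0.0453).

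Both ploidy calls in BY were lost when arrays were centred on their medians (RPN2 0.45, limma adjusted p = 0.0568, and RPN9 0.31, limma adjusted p = 0.209). That scaling moved the median difference of all probe sets from 0.11 to 0.01. Leaving out BY diploid replicate 3 also ended both calls (0 of 33), and RPN2 alone passed without any 1 of the 3 BY haploid arrays or without BY diploid replicate 1 or 2. The median difference over the 32 subunits was 0.21, beside 0.13 over all genes, and 30 of the 32 were above 0, as were 4397 of 5656 genes.

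In RM 0 of 33 passed between diploids and haploids by limma in either direction, against 4.92% higher and 2.72% lower among all genes. Before adjustment 4 had a p under 0.05, as did 1153 of 5656 genes. The RM groups did not overlap, in either direction, in 4 of 33 proteasome genes and 1681 of 5656 genes. RPN10, a ubiquitin receptor that is also found free of the proteasome, came nearest: its levels were 9.48, 9.25 and 9.52 in RM haploids and 9.75, 9.76 and 9.72 in RM diploids, without overlap (0.33 ± 0.11, limma adjusted p = 0.0639). The median over the 32 subunits was -0.01, beside 0.05 over all genes.

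The strain difference was tested for a dependence on ploidy as a limma interaction, RM diploid minus RM haploid less the same in BY. The haploids carried markers of opposite mating types, so a dependence on ploidy and 1 on cell type cannot be told apart. In this test 0 of 33 passed, against 0.760% higher and 1.06% lower among all genes, and 2 had a p under 0.05 before adjustment, as did 591 of 5656 genes. The median over the 32 subunits was -0.20, beside -0.07 over all genes. Of the 32, 7 were above 0, as were 2199 of 5656 genes. The interaction was -0.42 ± 0.22 for RPT6 (95% interval -0.88 to 0.05), -0.33 ± 0.21 for RPN6 (-0.78 to 0.11), 0.03 ± 0.19 for RPN13 (-0.36 to 0.43) and -0.05 ± 0.13 for RPN7 (-0.33 to 0.23). With intervals this wide, the lack of calls does not show that the strain difference is the same in haploids and diploids.

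The third comparison asked whether hybrid diploids lie at the mean of their diploid parents. The midparent is the log2 of the mean of the parents' linear levels. In hybrids 7 of 33 proteasome genes were above the midparent and 0 below, against 9.05% above and 12.8% below among all genes. The 7 were PRE3, PRE2 and PRE4 of the beta ring, the ATPase RPT4, the ubiquitin receptor RPN13, and RPN5 and RPN7 of the lid. The median over the 32 subunits was 0.18, beside -0.06 over all genes.

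PRE3 had levels of 10.71 to 11.08 in the 6 hybrids (median 10.80), against 10.62, 10.60 and 10.58 in BY diploids and 10.19, 10.32 and 10.43 in RM diploids. All hybrid arrays were above all parental diploid arrays. The difference from the midparent was 0.37 ± 0.09 (1.29-fold, n = 6, 3 and 3, limma adjusted p = 0.00623), and its other probe sets were also above the midparent, by 0.48 ± 0.11 and 0.38 ± 0.13 (limma adjusted p = 0.00451 and 0.0421).

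PRE2 had levels of 10.60 to 10.87 in hybrids (median 10.69), against 10.45, 10.50 and 10.47 in BY diploids and 10.33, 10.33 and 10.41 in RM diploids. Again every hybrid array was above both parents. The difference was 0.29 ± 0.07 (1.22-fold, limma adjusted p = 0.00495). PUP1, the remaining catalytic subunit, had hybrid levels of 10.27 to 10.61 (median 10.46) that overlapped those of both parents, 10.22, 10.23 and 10.30 in BY and 10.47, 10.01 and 10.30 in RM, and its difference of 0.19 ± 0.08 did not pass (limma adjusted p = 0.122).

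**Figure D3:**
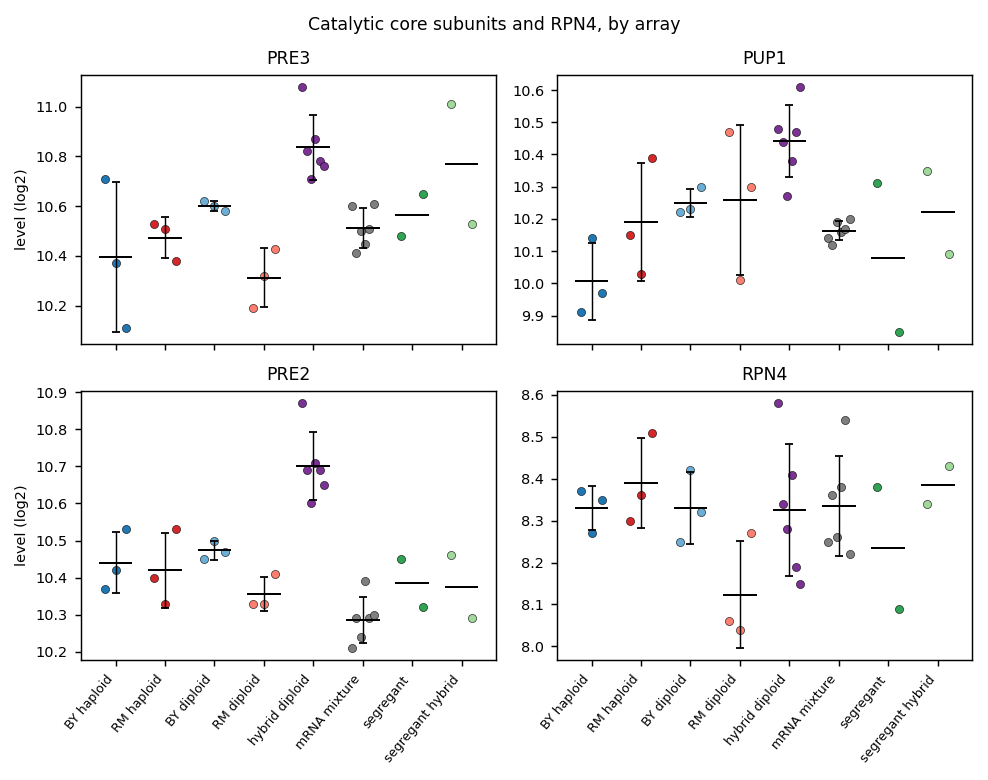
Log2 levels (vertical axes) of the catalytic subunits PRE3, PUP1 and PRE2 and of RPN4 on each array by group (horizontal axis). Points are arrays, lines are group means and bars are SDs for groups of 3 or more, and the axes do not start at 0. The 6 hybrid arrays of PRE3 (10.71 to 11.08) and PRE2 (10.60 to 10.87) lie above the parental diploids and the mixtures, and those of RPN4 (8.15 to 8.58) overlap the range of every other group.

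RPT4 had levels of 8.97 to 9.16 in hybrids (median 9.06), against 8.74, 8.82 and 8.90 in BY diploids and 8.72, 8.66 and 8.81 in RM diploids. The hybrids lay above both parents (0.29 ± 0.07, limma adjusted p = 0.00796). RPN13 was at 10.02, 10.01, 9.88, 10.17, 9.99 and 9.96 in hybrids, within the range of the BY diploids and above all RM diploids, and exceeded the midparent by 0.31 ± 0.10 (limma adjusted p = 0.0284). RPN7 was at 9.43 to 9.65 (median 9.54), around the BY diploids and above all RM diploids (0.20 ± 0.07, limma adjusted p = 0.0397).

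PRE4 (0.24 ± 0.07, limma adjusted p = 0.0238) and RPN5 (0.22 ± 0.07, limma adjusted p = 0.0262) passed with smaller differences. RPT6 was at 9.86 to 10.21 in hybrids (median 10.07), below all BY diploids and above all RM diploids, and did not pass (0.18 ± 0.12, limma adjusted p = 0.286). RPN10 (0.15 ± 0.08) and RPN11 (0.19 ± 0.11) did not pass. Of the 33 genes, 5 had every hybrid array above every BY and RM diploid array (PRE3, PRE2, RPT4, RPN10 and RPN5), which is 15.2% against 3.13% of all genes. The count of 7 depended on the scaling: it was 3 after quantile normalization (PRE3, PRE2 and RPT4) and 13 after median centring. It was 11 with mixture replicate 5 left out of the fit, which changes only the shared estimate of spread, and 4 without hybrid replicate 1, hybrid replicate 2 or BY diploid replicate 1. RPN13 lost its call without hybrid replicate 1, 2 or 4, BY diploid replicate 2 or RM diploid replicate 1 (limma adjusted p from 0.0513 to 0.146). RPN7 lost it without hybrid replicate 1, 2, 4 or 5, without any 1 of the 3 BY diploid arrays, and without RM diploid replicate 1 or 2 (limma adjusted p from 0.0617 to 0.0981). PRE4 lost it without hybrid replicate 1, BY diploid replicate 1 or RM diploid replicate 2, and RPN5 without hybrid replicate 2, BY diploid replicate 1 or RM diploid replicate 2 (limma adjusted p from 0.0535 to 0.0815).

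The mixtures show what equal parts of both strains' mRNA give on the same array. Against the midparent of the haploids, 0 of 33 proteasome genes passed by limma in either direction, against 1.04% above and 3.47% below among all genes, and 2 had a p under 0.05 before adjustment, as did 949 of 5656 genes. RPN13 had mixture levels of 9.63 to 9.91 (median 9.75), within the range of the BY haploids, with a difference of 0.29 ± 0.10 (limma adjusted p = 0.0588). RPN7 had mixture levels of 9.13 to 9.26, between all RM haploids and all BY haploids (0.04 ± 0.07). The median over the 32 subunits was 0.01, beside -0.04 over all genes.

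The fourth comparison set the 6 hybrids against the 6 mixtures. It shares the hybrid arrays with the midparent comparison, and the groups differ in cell state as well as in the joining of the genomes, since the mixtures carried haploid markers and the hybrids did not. The part of cell state in these differences was not tested. In hybrids 22 of 33 proteasome genes were higher and 0 were lower, against 22.0% higher and 10.7% lower among all genes. The 22 were 11 of 14 core subunits and 11 of 18 regulatory subunits: 5 of 7 in the alpha ring, 6 of 7 in the beta ring, 3 of 6 ATPases, 2 of 4 other base subunits and 6 of 8 in the lid.

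The median difference was 0.30 over the 32 subunits, 0.36 over the core and 0.26 over the regulatory particle, beside 0.08 over all genes. Differences ran from 0.07 (RPN1) to 0.49 (RPN3), and all 32 were above 0, as were 3475 of 5656 genes. In 17 of 33 genes every hybrid array was above every mixture array, which is 51.5% against 13.2% of all genes. Mixture replicate 5, which stood apart from its group, was often the lowest mixture array. Without it 18 of 33 passed, all of them among the 22, and the median over the 32 subunits was 0.28. SCL1, RPT5, RPN2 and RPN9 were the genes lost. With other hybrid or mixture arrays left out in turn 17 to 23 passed, the fewest without hybrid replicate 1, where RPT4 was lost as well.

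**Figure D4:**
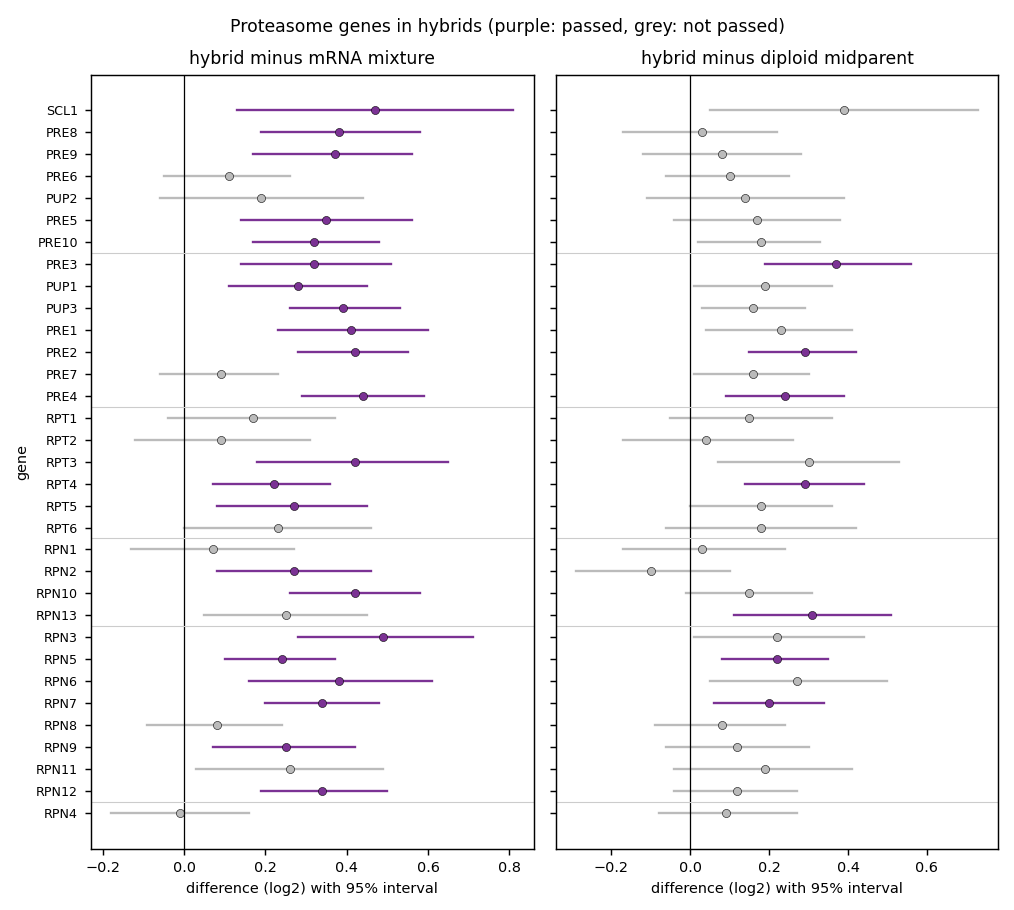
Difference in log2 level of each of the 33 proteasome genes (vertical axis) between hybrids and mRNA mixtures (left) and between hybrids and the diploid midparent (right). Points are differences and lines are 95% intervals, purple for the genes that passed (22 on the left, 7 on the right) and grey for the others. Subunit differences lie to the right of 0 in the left panel, and RPN4 lies at -0.01.

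RPN3, a lid subunit, had levels of 9.19 to 9.47 in hybrids (median 9.41) and 9.01, 9.04, 8.99, 9.04, 8.40 and 8.86 in mixtures. The groups did not overlap and mixture replicate 5 was the lowest array. The difference was 0.49 ± 0.11 (1.41-fold, n = 6 and 6, limma adjusted p = 8.8e-04).

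SCL1 of the alpha ring had levels of 10.13 to 10.50 in hybrids (median 10.36) and 9.57 to 10.03 in mixtures (median 9.95), without overlap. The difference was 0.47 ± 0.16 (1.39-fold, limma adjusted p = 0.0344). Without mixture replicate 5 it was 0.41 and did not pass (limma adjusted p = 0.07), and the call was also lost without mixture replicate 6 or without any 1 of hybrid replicates 1 to 5 (limma adjusted p from 0.0546 to 0.065).

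PRE4 had levels of 10.42 to 10.67 in hybrids (median 10.49) and 9.86 to 10.25 in mixtures (median 10.08). All hybrids were higher (0.44 ± 0.07, 1.36-fold, limma adjusted p = 5.3e-05). PRE2 had levels of 10.60 to 10.87 in hybrids and 10.21 to 10.39 in mixtures (median 10.29), again without overlap (0.42 ± 0.07, 1.33-fold, limma adjusted p = 2.9e-05).

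RPN10 had levels of 9.80 to 9.89 in hybrids (median 9.82) and 9.14 to 9.59 in mixtures (median 9.43). The hybrids lay close together and above every mixture (0.42 ± 0.08, 1.34-fold, limma adjusted p = 1.7e-04). The ATPase RPT3 had levels of 8.94 to 9.33 in hybrids (median 9.12) and 8.33 to 8.92 in mixtures (median 8.77), without overlap (0.42 ± 0.11, limma adjusted p = 0.00668).

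Of the other catalytic subunits, PRE3 was higher in hybrids by 0.32 ± 0.09 (limma adjusted p = 0.0078) and PUP1 by 0.28 ± 0.08 (limma adjusted p = 0.0138), so all 3 catalytic genes passed on the probe sets used. The other probe sets of PRE3 differed by 0.33 ± 0.11 (limma adjusted p = 0.0248) and 0.32 ± 0.13 (limma adjusted p = 0.0629), and the second did not pass. PUP1 levels were 10.12 to 10.20 in mixtures and 10.27 to 10.61 in hybrids, without overlap. The ATPase RPT5 passed on the probe set used (0.27 ± 0.09, limma adjusted p = 0.0259). Its other probe sets differed by 0.15 ± 0.13, 0.15 ± 0.14 and, at a mean level of 5.08, -0.05 ± 0.34. None of these passed (limma adjusted p from 0.437 to 0.938). With the mean of its probe sets RPT5 differed by 0.13 and did not pass (limma adjusted p = 0.518). RPN11 differed by 0.26 ± 0.11 (limma adjusted p = 0.0809) and RPN13 by 0.25 ± 0.09 (limma adjusted p = 0.0524), and neither passed. The other subunits that did not pass were PRE6, PUP2, PRE7, RPT1, RPT2, RPT6, RPN1 and RPN8, with differences from 0.07 to 0.23.

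RPN4, the activator, passed in none of the 8 comparisons. Its levels were 8.37, 8.27 and 8.35 in BY haploids, 8.30, 8.36 and 8.51 in RM haploids, 8.25, 8.42 and 8.32 in BY diploids, and 8.06, 8.04 and 8.27 in RM diploids. They were 8.15 to 8.58 in hybrids (median 8.31) and 8.22 to 8.54 in mixtures (median 8.31). RM diploids were the lowest group and lay below the RM haploids without overlap, with a difference that did not pass (-0.27 ± 0.12, limma adjusted p = 0.201). Hybrids and mixtures overlapped almost wholly, with a difference of -0.01 ± 0.08 and a 95% interval of -0.18 to 0.16. These are transcript levels, and the amount of the Rpn4 protein was not measured.

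Within groups, the arrays' deviations of RPN4 from its group mean were set beside those of the subunits over 24 arrays of 6 groups, as a description: arrays share scaling and sample quality, so such correlations hold more than the genes' own relation. Pearson's r with RPN4 had a median of 0.27 over the 32 subunits, 30 of them above 0. Over all other genes the median was -0.08, with 2252 of 5623 above 0. Without mixture replicate 5, in which RPN4 was high and many subunits were low, the medians were 0.47 and 0.06 over 23 arrays. The subunits with the highest r over 24 arrays were RPN12 of the lid (0.74), PRE2 (0.65) and PRE7 of the beta ring (0.60). The lowest were RPN10 (-0.27) and RPN13 (-0.04). Over the 8 group means the subunits' r with RPN4 ran from -0.46 (RPN12) to 0.76 (PUP2). There it was 0.18 for PRE2, 0.66 for PRE7, -0.25 for RPN10 and 0.36 for RPN13. The order of subunits within groups was thus not their order between groups.

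Pairs of subunits were also described in this way. The median r was 0.29 for pairs within the core, 0.39 for pairs within the regulatory particle and 0.29 for pairs across the particles, beside 0.08 for all pairs of genes. RPN9 followed the mean of the other 31 subunits most closely (r = 0.93), and PUP1 did so least (r = -0.16).

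The particles were compared by the mean over 14 core subunits of the level minus the gene's mean over 8 groups, less the same mean over 18 regulatory subunits. This core minus regulatory shift was -0.09 ± 0.07 (SD, n = 3) in BY haploids and 0.17 ± 0.05 in RM haploids. In diploids it was -0.14 ± 0.04 in BY and 0.10 ± 0.03 in RM. All RM arrays (0.08 to 0.21) were above all BY arrays (-0.18 to -0.04). It was 0.00 ± 0.04 in hybrids (n = 6) and -0.06 ± 0.07 in mixtures (n = 6), between the parents' means.

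Much of the strain shift lay in 4 genes. Without RPT6, RPN13, RPN6 and RPN7, which left 14 regulatory subunits, the shift was -0.03 ± 0.06 in BY haploids, 0.09 ± 0.05 in RM haploids, -0.08 ± 0.05 in BY diploids and 0.01 ± 0.02 in RM diploids. These 4 genes were chosen by their strain differences, so this is a description only. Hybrids had the same mean in both particles: the mean centred level was 0.22 ± 0.08 for the core and 0.22 ± 0.09 for the regulatory particle, against -0.10 ± 0.05 and -0.04 ± 0.10 in mixtures.

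**Figure D5:**
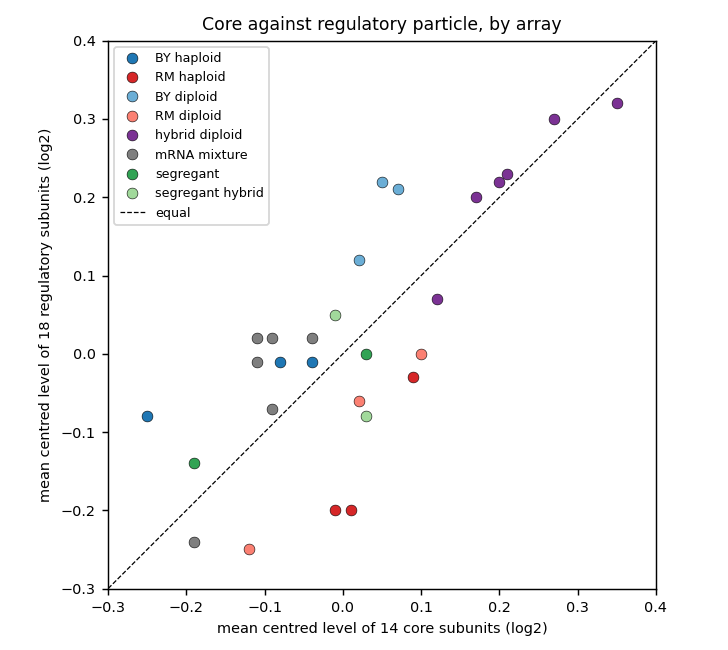
Mean centred log2 level of the 18 regulatory subunits (vertical axis) against that of the 14 core subunits (horizontal axis), 1 point per array, coloured by group, with a dashed line where both are equal. BY arrays lie above the line and RM arrays below it, and hybrid arrays lie along the line at the upper end, with core values from 0.12 to 0.35.

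Other genes of the ubiquitin pathway, regulators of RPN4 and targets of these regulators were read from 11 lists. They are given here between hybrids and mixtures, where 22.0% of all genes were higher and 10.7% lower. Proteasome assembly chaperones were higher in hybrids in 4 of 10 cases and lower in 0, with NAS2 (0.61 ± 0.15), NAS6 (0.54 ± 0.09) and HSM3 (0.46 ± 0.14), all chaperones of the base, at the top. Of 7 associated factors only UBP6, the deubiquitinase bound to the base, passed (0.40 ± 0.11). UBI4, the polyubiquitin gene, was higher by 0.53 ± 0.14, and RPS31, the other ubiquitin gene measured, did not pass.

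Of 14 ubiquitin-activating and conjugating enzymes 6 were higher in hybrids, led by UBC8 (0.62 ± 0.14), MMS2 (0.58 ± 0.08) and UBC5 (0.53 ± 0.15). Of 27 ubiquitin ligase genes 4 were higher (14.8%), a share below that of all genes, led by HUL4 (0.67 ± 0.15). Of 18 deubiquitinases 4 were higher (22.2%), about the share of all genes, and 1 was lower, UBP10, which acts on histones (-0.62 ± 0.13). Of 15 genes for Cdc48 and shuttle factors 6 were higher, among them the Cdc48 cofactor UBX6 (0.69 ± 0.13), the shuttle factor DDI1 (0.58 ± 0.10) and UBX7 (0.50 ± 0.12). The medians of these ubiquitin pathway lists lay between 0.15 and 0.26, beside 0.30 over the 32 subunits and 0.08 over all genes.

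RPN4 transcription is known to respond to Pdr1 and Pdr3, Yap1, Yrr1 and Hsf1. In hybrids against mixtures YRR1 (0.34 ± 0.09) and YAP1 (0.30 ± 0.10) were higher and PDR3 (-0.23 ± 0.08) was lower, while PDR1 (0.01) and HSF1 (0.01) did not pass. Of 11 Pdr1 and Pdr3 targets 3 were lower and 0 were higher, and the drug pump gene PDR5 was lowest (-1.17 ± 0.11, limma adjusted p = 5.1e-09). The 3 were PDR5, PDR10 (-0.32 ± 0.09) and PDR3, which is also counted above as a regulator. They are 27.3% of the list, against 10.7% lower among all genes. Of 14 Yap1 targets 8 were higher (57.1%), led by the mitochondrial peroxiredoxin PRX1 (0.95 ± 0.16). Of 20 Hsf1 targets and chaperones 7 were higher (35.0%, against 22.0% of all genes), led by HSP78 (1.33 ± 0.15) and HSP42 (1.05 ± 0.16).

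Against the diploid midparent, these lists are read beside 9.05% above and 12.8% below among all genes. UBX6 (0.97 ± 0.13) and CDC48 (0.44 ± 0.13), the segregase that extracts ubiquitinated proteins, were above it. These were 2 of 15 genes for Cdc48 and shuttle factors. Of 14 activating and conjugating enzymes 3 were above and 1 below: UBC1 (0.34 ± 0.07), MMS2 (0.32 ± 0.08) and UBC7 (0.29 ± 0.08) were above it and UBC11 (-0.38 ± 0.10) was below. Of 10 assembly factors ADD66 of the core was above (0.51 ± 0.13) and POC4 below (-0.28 ± 0.08). Of 18 deubiquitinases 0 were above and 2 below, UBP10 (-0.59 ± 0.13) and OTU2 (-0.53 ± 0.15). Of 27 ubiquitin ligase genes HRD3 alone passed (0.33 ± 0.11), as did CIC1 of 7 associated factors (-0.67 ± 0.19). Of 11 Pdr1 and Pdr3 targets 1 was above, PDR15 (0.66 ± 0.21), and 2 were below, PDR5 (-0.39 ± 0.11) and PDR10 (-0.33 ± 0.09). Of the 5 regulators of RPN4 only YRR1 passed (0.31 ± 0.09), and neither ubiquitin gene did. Of 14 Yap1 targets 4 were above and 0 below, led by PRX1 (0.67 ± 0.16). Of 20 Hsf1 targets and chaperones 8 were above and 0 below, led by HSP26 (1.48 ± 0.32), a share of 40.0% beside 21.2% of the 33 proteasome genes.

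Between the strains, other genes of these lists differed in both directions, and only some of those that passed are named. Among all genes 12.1% were higher and 5.23% lower in RM haploids, and 9.83% and 8.45% in RM diploids. Of 20 Hsf1 targets and chaperones 2 were higher and 4 lower in RM haploids, and 1 higher and 5 lower in RM diploids. STI1 was lower in RM at both ploidies (-1.46 ± 0.25 and -1.23 ± 0.25). UBX6 was higher in RM at both ploidies (1.14 ± 0.19 in haploids and 0.69 ± 0.19 in diploids), as was DDI1 (0.53 ± 0.15 and 0.44 ± 0.15), whereas the shuttle factor DSK2 was lower in RM diploids (-0.59 ± 0.14). The activating enzyme gene UBA1 was lower in RM diploids (-0.65 ± 0.14) and CDC34, the conjugating enzyme of the SCF ligases, was higher in both (0.42 ± 0.11 and 0.42 ± 0.11). PDR5 was lower in RM in haploids (-1.07 ± 0.15) and in diploids (-0.67 ± 0.15). The RPN4 regulator YRR1 was higher in RM at both ploidies (0.41 ± 0.12 and 0.56 ± 0.12). Of 14 Yap1 targets 1 was higher and 3 were lower in RM haploids. In RM diploids 1 was higher and 4 were lower, and GPX2 was lower in both (-1.23 ± 0.21 and -1.12 ± 0.21). Between BY haploids and diploids ECM29, which tethers the particles to each other, was higher in diploids (0.61 ± 0.14), as was MMS2 (0.43 ± 0.12), and PDR5 was lower (-0.83 ± 0.15, limma adjusted p = 3.3e-04). In RM diploids SPG5 was lower than in RM haploids (-0.72 ± 0.19). RPS31 (0.55 ± 0.15), ATR1 (0.77 ± 0.18) and HSP78 (1.04 ± 0.21) were higher there.

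The segregant and segregant hybrid arrays were not tested, because each may be another genotype. For the genes that differed between the strains, the 2 segregants had levels of 10.11 and 9.90 for RPT6, 9.31 and 9.15 for RPN13, 9.52 and 10.02 for RPN6, and 8.96 and 9.30 for RPN7. Set against the haploid parents, segregant 1 lay in the BY range for RPT6 and in the RM range for RPN6 and RPN7. Segregant 2 lay in the RM range for RPN13 and in the BY range for RPN6 and RPN7, and the remaining values, 9.90 for RPT6 and 9.31 for RPN13, lay between the parents.

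The 2 segregant hybrids had levels of 9.94 and 10.42 for RPT6, 10.02 and 9.80 for RPN13, 10.07 and 10.09 for RPN6, and 8.88 and 8.88 for RPN7. RPN13 lay in the range of the BY diploids and RPN6 lay between the parents. RPN7 lay below all RM diploids (9.05 to 9.21) on both arrays. RPN4 was at 8.38 and 8.09 in segregants and 8.34 and 8.43 in segregant hybrids. Their core minus regulatory shifts ran from -0.06 to 0.03 in segregants and from -0.05 to 0.12 in segregant hybrids.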

How the data were processed

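The authors deposited 1 table of log2 levels for 28 single-colour arrays. The scale was judged from the values, which reach 14.67, and the software and scaling behind them are not given in the sources used here. Of 9335 probe sets 60 controls and 1 at 0 on every array were left out. The platform annotation gave 6504 probe sets 1 gene (5656 genes), all matched to the R64 annotation. Columns without a sample numbered 0. In R 4.3.3, limma 3.58.1 fitted the means of 6 groups (24 arrays) by lmFit with eBayes and no trend. Tests were two-sided, p-values were adjusted by Benjamini-Hochberg over the 9274 remaining probe sets, and 0.05 was the threshold. Midparents were the log2 of the mean linear level, with a delta-method SE. The same hybrid, mixture and parental arrays enter several comparisons, whose values are therefore not independent.

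The members and gene lists were chosen with earlier results of these data known. Named per comparison were the members that passed (up to 6 rises and 6 falls) and RPN4, PRE3, PUP1, PRE2, RPN10, RPN11 and RPN13, with up to 3 passing genes of each other list. Members outside this rule are named where a count or range turns on them, and their choice followed their values. Of the listed genes 6 had no single-gene probe set under the name searched. The fit was tested on simulated data. Alternatives were quantile normalization, median centring, the dimmest 25% of probe sets left out, a floor at the 10th percentile (5.73), the compared groups only, a replicate block, the mean of a gene's probe sets, the log2 mean as midparent and each array left out in turn. Leaving mixture replicate 5 out of every fit was chosen after seeing the data. Promoter and protein sequences, and the promoter element that Rpn4 binds, were not analysed here. Python 3.11.15 with matplotlib 3.10.9 drew the figures.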

Additional observations from a re-analysis of the deposited data

Results flagged for a closer look

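In each group of 6 arrays, a member's (or the core minus regulatory shift's) highest or lowest array was set apart when its gap to the nearest other array, as a share of the group's range, exceeded Dixon's 95% critical value. This was so for 6 values, all of them the lowest of their group, and chance alone gives about 1 in 20 groups, of which 68 were looked at (66 of member levels and 2 of the shift). In mixture replicate 5, PRE10 was at 9.90 (the next array was at 10.10), RPT2 at 8.47 (next 8.86), RPN2 at 9.38 (next 9.60) and RPN3 at 8.40 (next 8.86). In hybrid replicate 6, PUP2 was at 9.69 (next 9.97) and RPN3 at 9.19 (next 9.39). Mixture replicate 5 is the array with the mean correlation of 0.922 with its group.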

How the results depend on the processing

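The 22 proteasome genes higher in hybrids than in mixtures numbered 18 to 23 under the alternatives and 17 to 23 with 1 hybrid or mixture array left out. The core minus regulatory shifts moved by less than 1 SD. Of 42 member results that passed, 27 passed under every alternative and with each array of the compared groups left out. None of the 42 changed sign. Other counts of members moved, and the cause was not tested. After quantile normalization 7 passed for strain in diploids (3 higher), 1 for ploidy in RM (RPN10), 3 for hybrids against the midparent and 1 for mixtures (PRE2, lower). After median centring 0 passed for ploidy in BY and 13 for hybrids against the midparent. With dim probe sets left out 1 passed for ploidy in RM. With a floor 2 passed for ploidy in RM (PUP3 and RPN10) and 1 for mixtures (RPN13). In fits of the compared groups only, which hold fewer arrays, 3 passed for strain in haploids and 7 in diploids. With the log2 mean as midparent 1 passed for mixtures. With mixture replicate 5 out of every fit 6 passed for strain in diploids and 1 for ploidy in RM. In those fits 11 passed for hybrids against the midparent and 1 for mixtures. Arrays were also left out 1 at a time, each only for the comparisons that use its group. Then 4 to 7 passed for strain in haploids, 4 in diploids in each case, 0 to 1 for ploidy in BY and 0 to 1 in RM. For hybrids against the midparent 4 to 8 passed, and 0 to 1 for mixtures. Between groups, arrays with the same replicate number were slightly more alike (median correlation of deviations 0.06 over 48 same-number pairs, -0.02 over 186 others). The correlation was over 0.1 in 19 of the 48 and in 43 of the 186. Whether replicate numbers pair the arrays was not tested. With the replicate block 6 passed for strain in haploids (RPN5 was lost), 1 for ploidy in BY (RPN2), 23 for hybrids against mixtures and 5 for hybrids against the midparent. There RPN13, PRE4 and RPN7 were lost (limma adjusted p from 0.0545 to 0.1) and RPT3 was gained. The 3 or 6 arrays of a group limit small differences, and signal over background is not known from these values.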
